A study of Mus musculus with 161 samples.

Results

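Cells in cycle were compared with cells out of cycle among the 57 bone marrow (BM) monocytes of a single-cell mRNA series. A BM monocyte was chosen by its level of 2 proliferation genes: cells with Top2a or Mki67 above 10 TPM (a length-corrected share of all transcripts in the cell, scaled so that each cell has the same total) formed the cycling set, and cells with both genes at or below 10 TPM the non-cycling set. The rule put 23 of the 57 BM monocytes above the threshold (40.4%, 95% exact interval 27.6 to 54.2%) and 34 below it, out of 161 cells in the whole series.

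The BM monocytes came from untreated C57BL/6 mice and were sorted as lineage-negative, CD117-, CD115+, CD135- and Ly6C+ cells. The series also holds 66 common monocyte progenitors (cMoP) of the marrow, sorted by the same gate but positive for CD117, and 38 blood monocytes sorted as CD115+ CD11b+ cells with high Ly6C, all captured on the Fluidigm C1 microfluidic system. It follows how far the expression of Ms4a3, a membrane protein gene, marks the descent of monocytes. No label names an animal, so each population counts as 1 sample of cells and no difference below has a replicate check, a standard error or a test.

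Classical monocytes arise in the marrow from dividing progenitors, and division is taken to stop as the cells mature and leave for the blood. A dividing cell copies its DNA in S phase with nucleotide-making enzymes, helicases and polymerases, then condenses and separates its chromosomes in G2 and M phase with kinases, cyclins, kinetochore proteins and tubulin. Top2a, the topoisomerase that untangles copied DNA, and Mki67, the Ki-67 protein that coats mitotic chromosomes, belong to the G2 and M part of that programme.

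Top2a was above 10 TPM in 18 BM monocytes, Mki67 in 17 and both in 12. Because these genes chose the cells, their levels are only described. The cells just inside the threshold had 12.4, 13.3, 14.2, 16.4 and 18.97 TPM in the higher of the 2 genes, and those just outside had 9.17, 8.45, 8.29, 8.27 and 6.55 TPM. Top2a itself had a wide gap: 13 cells lay between 218.7 and 1497 TPM, with a median of 1009 TPM, and no other BM monocyte was above 65.1 TPM. The 13 are called the Top2a-high cells below, a subset chosen after their values were seen.

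**Figure D1:**
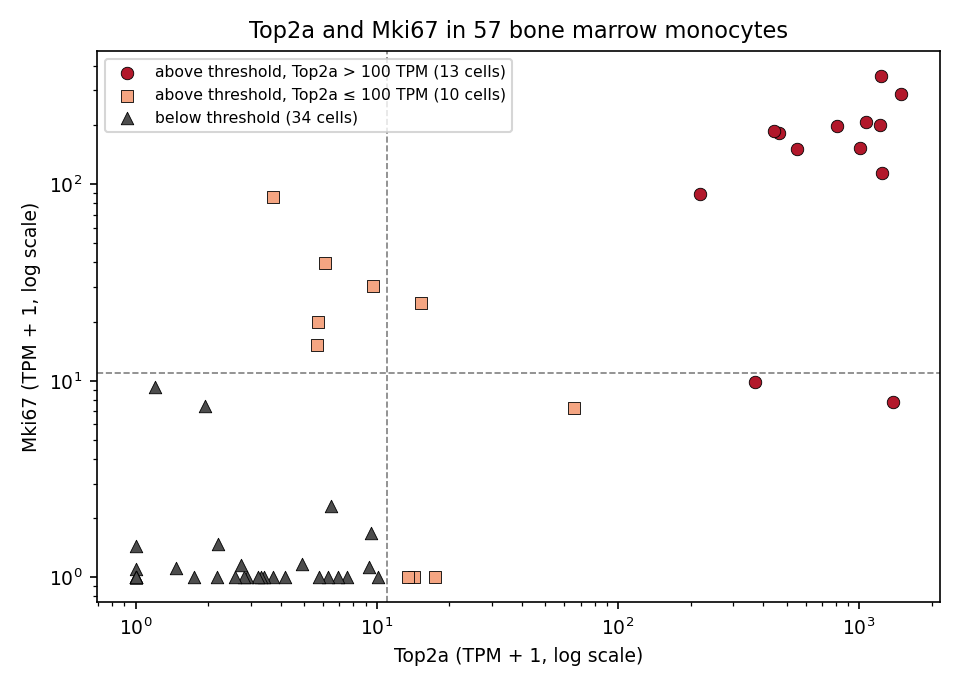
Top2a (x axis) and Mki67 (y axis) in each of the 57 BM monocytes, as TPM + 1 on log scales, with dashed lines at the threshold of 10 TPM. The 13 Top2a-high cells, from 218.7 TPM upward, stand apart from the 10 other cells above the threshold and from the 34 below it.

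The name "cycling" was checked against 86 other cell cycle genes, 38 of S phase and 48 of G2 and M phase, and it held for the 13 Top2a-high cells and not for most of the other 10. The Top2a-high cells had 36 to 63 of the 86 genes above 10 TPM (median 48). The other 10 cells above the threshold had 3 to 19 (median 5.5), and the 34 cells below it had 1 to 14 (median 5). The mean log2(TPM + 1) over the G2 and M list was 1.84 to 6.80 in the Top2a-high cells (median 5.54), 0.52 to 1.53 in the other 10 (median 0.64) and 0.10 to 2.12 in the cells below the threshold (median 0.62). In the G2 and M list the other 10 cells thus overlapped the cells below the threshold throughout, while the lowest Top2a-high cell lay under the highest cell below the threshold, at 2.12. BM monocyte 18, with 14.2 TPM of Top2a and 23.9 TPM of Mki67, was the exception among the 10, with an S phase mean of 3.20 and 19 cycle genes above 10 TPM. Just outside the threshold, BM monocyte 2 had an S phase mean of 2.20. Both comparisons are therefore given: all 23 cells above the threshold, called by that rule rather than as cycling cells, and the 13 Top2a-high cells, each against the 34 cells below it.

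**Figure D2:**
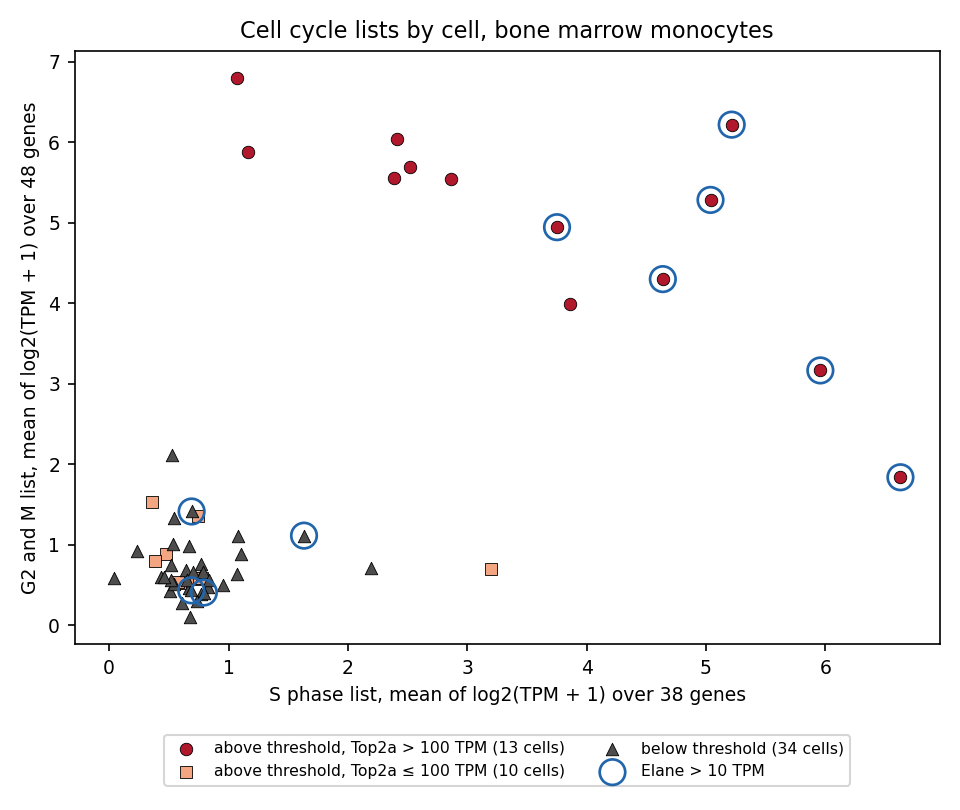
Mean log2(TPM + 1) over 38 S phase genes (x axis) and 48 G2 and M phase genes (y axis) for each BM monocyte, with rings around cells above 10 TPM of Elane, a granule protease gene. The 13 Top2a-high cells spread from an S phase mean of 1.07 to 6.63, and 6 of the 10 ringed cells are among them, at S phase means of 3.75 to 6.63.

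Levels were compared as the difference in mean log2(TPM + 1) over cells, above minus below the threshold, so that 1 is a doubling on that scale. Of 11889 measured genes, those above 1 TPM in at least 10% of either set and other than the 2 rule genes, 1741 (14.6%) differed by 1 or more and 310 (2.61%) by -1 or less. With the Top2a-high cells in place of all 23, the numbers were 2622 (22.1%) and 493 (4.15%). These shares belong to the contrast that chose the cells and serve only as a background to the counts below. The number of genes above 1 TPM per cell moved with the sets. It was 4449 to 5938 (median 4970) above the threshold and 3031 to 5295 (median 4228) below it, and the median difference over all measured genes was 0.24. For that reason each list is also given in 20 pairs of cells matched on the number of genes, where the median over all measured genes was 0.10. The part of gene number in single results was not tested beyond this pairing.

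Of the 20 genes with the largest positive differences 11 were in a cell cycle list and 9 in none. Stmn1, which encodes the microtubule-destabilizing protein stathmin, had the largest. It ran from 0 to 3145 TPM above the threshold, with a median of 1314 TPM, and from 0 to 807 TPM below it, with a median of 0 TPM. Its mean log2 level was 7.89 ± 4.06 (SD, 23 cells) above the threshold and 2.28 ± 3.40 (SD, 34 cells) below it, a difference of 5.61. All 13 Top2a-high cells had between 709 and 3145 TPM, so that 1 cell below the threshold, at 807 TPM, reached their range.

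Of the 48 G2 and M genes, all measured, 42 differed by 1 or more and none by -1 or less, with a median of 2.67, and of 4.91 for the Top2a-high cells. Smc2, a condensin subunit that compacts chromosomes, had a median of 52.97 TPM above the threshold (0 to 1257 TPM) and of 0 TPM below it (0 to 478.5 TPM), a difference of 3.998. Counted by cell, 14 of 23 above the threshold and 2 of 34 below it had over 10 TPM. Cenpa, the histone variant of centromeres, differed by 3.86, Aurkb, a mitotic kinase, by 3.86, and Cdk1, the kinase that drives entry into mitosis, by 3.82. Birc5, the survivin subunit of the Aurkb complex, differed by 3.67. Casc5, a kinetochore scaffold outside the G2 and M list, differed by 3.63. It ran from 11.3 to 1008 TPM in the Top2a-high cells, with none of the other 10 above 10 TPM, and reached at most 3.15 TPM below the threshold. The share of all measured genes that separate these sets in this way was not counted. The Top2a-high cells were chosen after their values were seen, so the separation is description only.

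Of 36 measured S phase genes (38 listed), 25 differed by 1 or more and none by -1 or less, with a median of 1.44, and of 2.48 for the Top2a-high cells. Rrm2 and Rrm1, the subunits of the enzyme that makes deoxynucleotides, differed by 3.95 and 3.35. Rrm2 was above 10 TPM in 11 of 23 cells above the threshold, all of them Top2a-high, and in 2 of 34 below it. Uhrf1, which carries DNA methylation over to the new strand, lay at 13.2 to 319 TPM in the Top2a-high cells, against at most 9.47 TPM in the cells below the threshold. How many of all measured genes separate these sets in this way was not counted. Tipin, a fork protection factor, differed by 3.56, Tyms, the thymidylate synthase, by 3.20, and Rfc4, a clamp loader subunit, by 3.08.

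The promoters of 4 of these genes are shown because S phase and G2 and M phase genes are known to carry different short elements. The CHR element TTTGAA and the CCAAT box, written CCAAT, are in capitals on either strand, in the 250 bases before the annotated start (RefSeq, GRCm38.p6). Smc2 (chr4:52438971-52439220, plus strand), Cenpa (chr5:30666636-30666885, plus strand) and Cdk1 (chr10:69352913-69353162, minus strand) stand for G2 and M phase, and Rrm2 (chr12:24708004-24708253, plus strand) for S phase.
Smc2: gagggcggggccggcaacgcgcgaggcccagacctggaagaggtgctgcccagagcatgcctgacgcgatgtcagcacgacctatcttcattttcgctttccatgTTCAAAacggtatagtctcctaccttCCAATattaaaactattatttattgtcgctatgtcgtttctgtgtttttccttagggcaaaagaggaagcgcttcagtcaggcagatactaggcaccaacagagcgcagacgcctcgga
Cenpa: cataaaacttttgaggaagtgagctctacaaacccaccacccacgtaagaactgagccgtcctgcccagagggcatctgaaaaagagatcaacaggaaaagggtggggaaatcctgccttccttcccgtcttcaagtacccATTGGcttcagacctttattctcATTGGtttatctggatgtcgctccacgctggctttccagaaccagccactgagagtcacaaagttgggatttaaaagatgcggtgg
Cdk1: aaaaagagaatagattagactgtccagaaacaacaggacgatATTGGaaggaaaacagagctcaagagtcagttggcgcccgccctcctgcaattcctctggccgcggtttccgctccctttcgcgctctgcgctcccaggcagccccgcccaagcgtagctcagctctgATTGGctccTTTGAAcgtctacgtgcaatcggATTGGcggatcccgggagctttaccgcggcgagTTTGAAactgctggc
Rrm2: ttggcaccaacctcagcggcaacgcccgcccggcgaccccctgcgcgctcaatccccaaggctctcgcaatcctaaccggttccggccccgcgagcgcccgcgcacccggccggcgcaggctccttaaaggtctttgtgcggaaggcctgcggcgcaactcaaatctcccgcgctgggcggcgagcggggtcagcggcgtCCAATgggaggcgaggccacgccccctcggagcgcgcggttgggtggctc
The promoter of Cdk1 held TTTGAA at 71 and at 15 bases before the start and 3 CCAAT boxes, that of Smc2 held 1 of each, that of Cenpa 2 CCAAT boxes and that of Rrm2 a single CCAAT box 50 bases before the start.

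Promoters were found for 68 of the 86 listed cycle genes. A gene counted when any of its listed promoters held the motif. TTTGAA was present for 13 of 40 G2 and M genes (32.5%) and 3 of 28 S phase genes (10.7%), against 18.3% of the 27025 genes with a listed promoter. CCAAT was present for 29 of 40 G2 and M genes (72.5%) and 16 of 28 S phase genes (57.1%), against 37.5% of all. An E2F-like site, TTTCCCGC or TTTGGCGC on either strand, was present for 0 of 40 G2 and M genes and 6 of 28 S phase genes (21.4%), against 1.51% of all. No motif contains another. A match is a string of letters, not a bound site.

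Genes of chromatin and microtubules followed the cycle lists. Of 24 measured genes 21 differed by 1 or more and none by -1 or less, with a median of 2.25. Tuba1b, an alpha tubulin, was at 0 to 4803 TPM above the threshold (median 899.9 TPM) and at 0 to 1111 TPM below it (median 39.6 TPM), a difference of 4.07. Tubb4b, a beta tubulin, differed by 3.84. Smc4, the partner of Smc2 in condensin and a member of the G2 and M list, differed by 3.70. Several of the leading genes outside the lists also work in division: Asf1b, a histone chaperone, differed by 4.07, Nup85, a nuclear pore subunit, by 4.16, and Mad2l1, a spindle checkpoint protein, by 3.78. Histone and tubulin genes have near-identical copies, so reads may have been split between them, and Hist1h2ap (4.34) and Hist1h4d (3.64) are uncertain for that reason. Others near the top are not division genes by name: Hsp90aa1, a stress-inducible chaperone, differed by 3.50, Elovl1, a fatty acid elongase, by 3.47 and Hspa14, an Hsp70-family chaperone, by 3.42.

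Several cycle inhibitors were among the genes with higher mean log2 levels above the threshold. Of 19 measured genes of the list of inhibitors and cycle exit, 9 differed by 1 or more and none by -1 or less, with a median of 0.88, which was 0.31 with a pseudocount of 10 and 0.004 as a log2 ratio of mean TPM. The list also holds kinases, cyclins and E2F factors, so the count is not one of inhibitors alone. Cdkn1a, which encodes the kinase inhibitor p21, had a median of 242 TPM above the threshold (0 to 1970 TPM) and of 1.95 TPM below it (0 to 1892 TPM), a difference of 2.80. In the Top2a-high cells it ran from 2.29 to 837 TPM with a median of 414 TPM, and 11 of the 13 had over 10 TPM. The ranges of the sets overlapped, since 15 of the 34 cells below the threshold also had over 10 TPM. Cdkn1a did not follow a progenitor pattern either, with a median of 0 TPM in cMoP and 18.5 TPM in blood monocytes. Cdkn2d and Cdkn1b, which encode the inhibitors p19 and p27, differed by 2.53 and 1.69. Cdkn1b differed by 1.68 in the Top2a-high cells, about as much as in all 23. E2f8, a repressor of the E2F family, differed by 3.37, Rbl1, a relative of the retinoblastoma protein, by 2.35, Cdk2 by 1.51 and Cdk4 by 1.36. Btg1, an antiproliferative gene, pointed the other way, at -0.73.

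**Figure D3:**
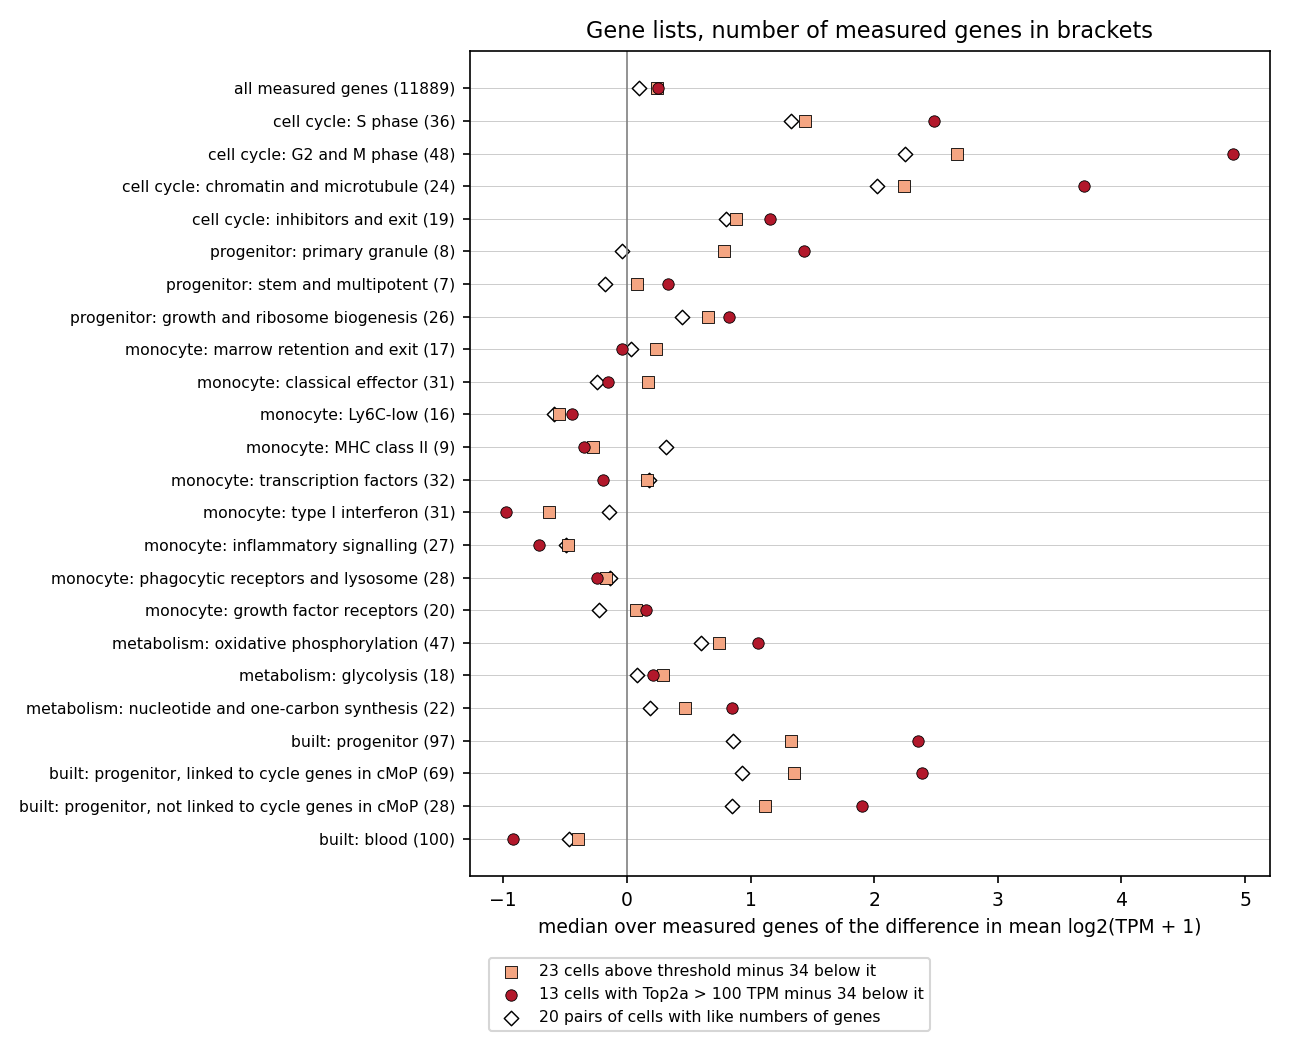
Median difference in mean log2(TPM + 1) over the measured genes of each list (number in brackets), for the 23 cells above the threshold (squares), the 13 Top2a-high cells (circles) and 20 pairs of cells matched on gene number (diamonds), each against cells below the threshold. The G2 and M list lies farthest to the right, at 2.67 and 4.91, and the interferon list farthest to the left for the Top2a-high cells, at -0.98.

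Many genes higher in cMoP than in blood monocytes were also higher in the Top2a-high cells, but the stem list moved little and Ms4a3 was not higher. A progenitor list of 100 genes was built without any BM monocyte: the genes outside the cell cycle lists with the largest difference of cMoP over blood monocytes. Of 97 measured in BM monocytes, 66 differed by 1 or more between cells above and below the threshold and 1 by -1 or less. The median was 1.32 over all cells above the threshold, 2.36 for the Top2a-high cells, -0.08 for the other 10 and 0.85 in the matched pairs. The Top2a-high cells had the most genes above 1 TPM per cell (median 5502), and in the 10 pairs of them matched on gene number the median was 1.15. By the same rule 65 of 66 cMoP and 8 of 38 blood monocytes lay above the threshold, and no blood monocyte had Top2a above 100 TPM. The list thus sets a population with cycle transcripts against one largely without them. Its making therefore favoured a rise in the Top2a-high cells, and the rise is description only. Many of these genes also follow the cycle. The 28 measured genes of the 31 that were not linked to the cycle lists across cMoP (Pearson r not reaching 0.3) had a median of 1.12, with 18 at 1 or more. Casc5 was among those 31, so the split does not remove every division gene. Nor can a split across cMoP, nearly all above the threshold, remove what sets cMoP apart from blood monocytes. Others in the list were Rpa3, a subunit of the protein that coats single-stranded DNA (3.50), Ncapd2, a condensin subunit (3.01), Pmf1, a kinetochore protein (2.92), and Gmnn, the replication licensing inhibitor geminin (2.35).

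Per cell, the mean log2 level of the 31 genes was 1.88 to 4.95 in the Top2a-high cells (median 3.07), 0.75 to 2.77 in the other 10 cells above the threshold (median 1.08) and 0.43 to 2.81 in the cells below it (median 1.23). It was 4.31 to 8.14 in cMoP (median 7.29) and 0.08 to 1.78 in blood monocytes (median 0.73). The choice of genes put cMoP high and blood monocytes low, so a median between them is no result in itself. The cells below the threshold had one too. Of the Top2a-high cells, 4 lay inside the range of cMoP. The level was uneven among the Top2a-high cells. The 7 with an S phase mean above 3 had 2.53 to 4.95 (median 4.36). The 6 with an S phase mean at or below 3 had 1.88 to 3.07 (median 2.18). The median of these 6 lay inside the range of the cells below the threshold. Gene number differed too, with medians of 5616 genes in the 7 cells and 5100.5 in the 6, so the split is description only. BM and blood monocytes were sequenced on the same flow cell lane and the cMoP with a recorded flow cell on another, so levels against cMoP cannot be told apart from the flow cell.

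**Figure D4:**
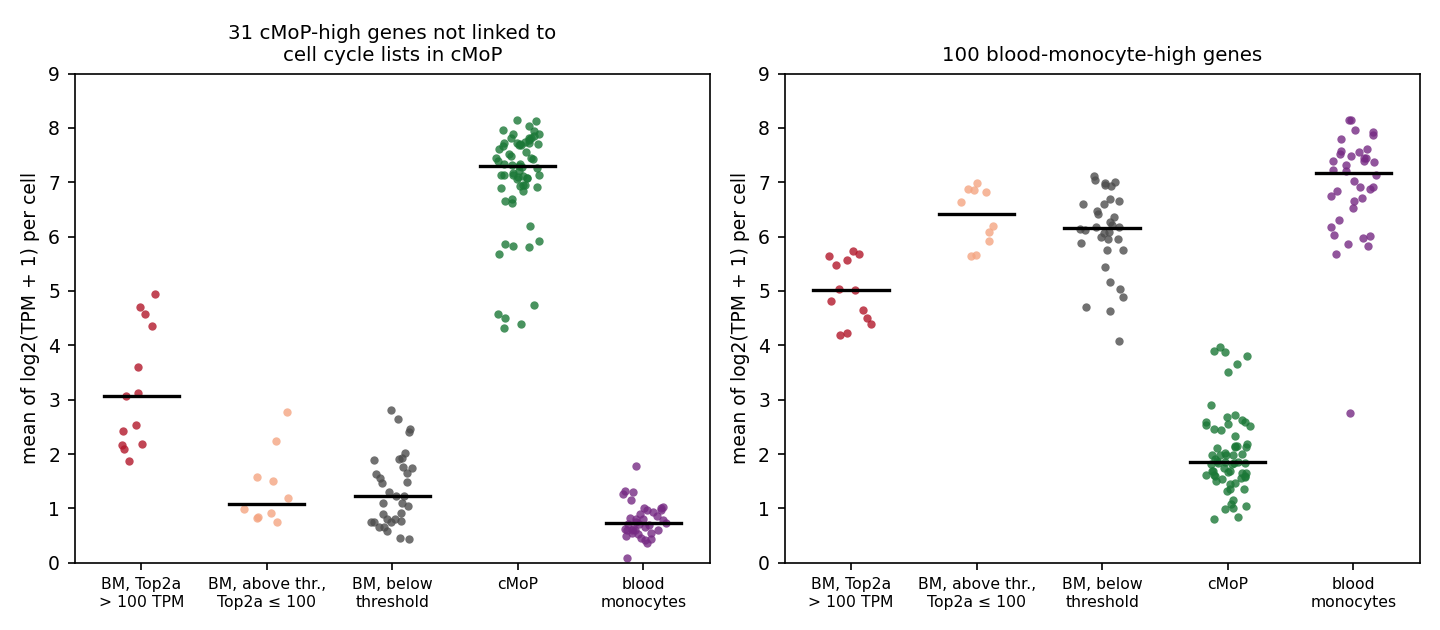
Mean log2(TPM + 1) per cell over the 31 progenitor genes not linked to the cycle lists (left) and the 100 blood monocyte genes (right), for the Top2a-high BM monocytes, the other BM monocytes above the threshold, those below it, cMoP and blood monocytes, with bars at the medians. The Top2a-high cells have a median of 3.07 on the left and 5.02 on the right.

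The granule protease genes were seen in some Top2a-high cells and were not particular to them. Elane, the neutrophil elastase gene, is made at the granulocyte and monocyte progenitor stage and had a median of 3525 TPM in cMoP. It was above 10 TPM in 6 of 23 BM monocytes above the threshold (26.1%, 10.2 to 48.4%) and in 4 of 34 below it (11.8%, 3.30 to 27.5%). All 6 were Top2a-high, with values of 1335, 438, 215, 203, 19.9 and 18.3 TPM, and the 4 below the threshold had 455, 443, 172 and 27.7 TPM. The 6 cells had S phase means of 3.75 to 6.63, while the other 7 Top2a-high cells had Elane at 0, 6 of them at S phase means of 1.07 to 2.86 and BM monocyte 42 at 3.86. The 4 cells below the threshold had S phase means of only 0.69 to 1.63, so Elane was also present without high S phase levels. Prtn3, proteinase 3, was above 10 TPM in the same numbers of cells, 6 of 23 and 4 of 34, and Ctsg, cathepsin G, in 5 of 23 and 1 of 34. Mpo, the myeloperoxidase gene, was above 10 TPM in 1 of 23 cells, at 89.7 TPM, and in 0 of 34, which allows a share of up to 8.82%. The granule list of 8 measured genes had a median of 0.79, but of -0.04 in the matched pairs. Serpinb1a, an inhibitor of these proteases, differed by 1.67. Fcnb, a lectin gene of early neutrophils and monocyte progenitors, differed by 1.55.

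The stem and gate genes gave few differences. Myb, a transcription factor of dividing blood progenitors, was above 1 TPM in 5 of 23 cells above the threshold, all Top2a-high, at 188, 171, 16.3, 4.94 and 4.47 TPM, and was listed at 0 in all 34 cells below it. Kit, which encodes CD117, was listed at 0 in every BM monocyte of both sets, which allows shares of up to 13.04% of the 23 and 8.82% of the 34. Ms4a3 was at 0 in all 23 cells above the threshold and above 1 TPM in 4 of 34 below it, with 8.29 TPM as the highest value, against a median of 549 TPM in cMoP. Cd34, a stem and progenitor surface protein, had medians of 4.05 TPM above the threshold and 1.37 TPM below it, but of 1.16 TPM in the Top2a-high cells. Over 7 measured stem genes the median was 0.08, with 1 gene at 1 or more and 1 at -1 or less. Flt3, which encodes CD135, was above 10 TPM in no BM monocyte. Csf1r, which encodes CD115, had medians of 65.2 TPM above the threshold and 19.1 TPM below it, a difference of 1.42, and Ly6c2, the Ly6C gene, had medians of 4941 TPM above the threshold and 6770 TPM below it, a difference of -0.18.

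Ribosome biogenesis and respiration genes leaned toward the cells above the threshold. Of 26 measured genes of ribosome biogenesis and growth, 8 differed by 1 or more and none by -1 or less (median 0.65, and 0.45 in the matched pairs). Their median was 0.82 for the Top2a-high cells and 0.08 for the other 10 above the threshold. Nhp2 and Dkc1, subunits of the particle that modifies ribosomal RNA, differed by 2.02 and 1.86, Nop58, a nucleolar protein, by 1.77 and Ncl, nucleolin, by 1.595. Of 47 genes of oxidative phosphorylation, 19 differed by 1 or more and 1 by -1 or less (median 0.75, and 0.60 in the pairs). For the Top2a-high cells their median was 1.06, and for the other 10 it was 0.12. As log2 ratios of mean TPM only 5 of the 47 were at 1 or more and the median was 0.10, and with a threshold of 1 TPM the median was 0.04. Uqcrc2, a core subunit of complex III, was at 0 to 1859 TPM above the threshold (median 119 TPM) and at 0 to 426 TPM below it (median 7.41 TPM), a difference of 3.07, and all 13 Top2a-high cells had at least 36.8 TPM. Ndufs3, of complex I, and Sdhd, of complex II, each differed by 2.77. Glycolysis genes moved little beyond all measured genes, whose median was 0.24. Their median was 0.30, and 0.085 in the pairs, with 3 of 18 at 1 or more, among them Tpi1, triosephosphate isomerase, at 2.70. Nucleotide and one-carbon genes had a median of 0.47, and 0.18 in the pairs. Of these, 4 of 22 were at 1 or more, among them Paics, a purine synthesis enzyme, at 2.46 and Psat1, a serine synthesis enzyme, at 1.68. Over all cells above the threshold, the counts at 1 or more in both of these lists were near the 14.6% of all measured genes. For the Top2a-high cells, 10 of 22 nucleotide and one-carbon genes and 7 of 18 glycolysis genes were at 1 or more. The share of all measured genes there was 22.1%. The list medians for these cells were 0.85 and 0.21. In the pairs of Top2a-high cells matched on gene number the counts were 5 and 3, with medians of 0.47 and -0.72.

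Genes of the mature monocyte were lower in the Top2a-high cells. A list of 100 genes was built in the same way from blood monocytes over cMoP. Of these, 29 differed by -1 or less and 3 by 1 or more (median -0.40), and for the Top2a-high cells 46 and 3 (median -0.92). Per cell their mean log2 level was 4.19 to 5.73 in the Top2a-high cells (median 5.02), 5.64 to 6.99 in the other 10 cells above the threshold (median 6.42) and 4.09 to 7.12 in the cells below it (median 6.16). The Top2a-high cells lay within the range of the cells below the threshold. The cMoP had 0.80 to 3.97, a distance that the choice of genes set.

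Among the 10 members of that list with the largest differences, 9 were lower. Apobec1, an RNA-editing enzyme, had a median of 16.2 TPM above the threshold (0 to 893 TPM) and of 327 TPM below it (0 to 1633 TPM), a difference of -2.88. It was as low in the 10 other cells above the threshold (-2.89) as in the Top2a-high cells (-2.86). Clec4a3, a C-type lectin receptor, behaved differently, at -4.33 in the Top2a-high cells and 0.10 in the other 10. Wfdc17, a secreted protein of myeloid cells, had a median of 48.98 TPM in the Top2a-high cells (0 to 1030 TPM) and of 838 TPM in the cells below the threshold (3.35 to 3208 TPM), a difference of -4.19, with 0.10 in the other 10 cells. Sirpb1a, an activating receptor, differed by -2.64 over all 23, Fgr, a Src-family kinase of myeloid cells, by -2.43, and Clec4a1 by -2.12. Cd86, a co-stimulatory protein, was the member that was higher, by 1.94. Outside the list, Tgs1, which modifies RNA caps, differed by -2.41 and Mrpl24, a mitochondrial ribosomal protein, by -2.40.

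**Figure D5:**
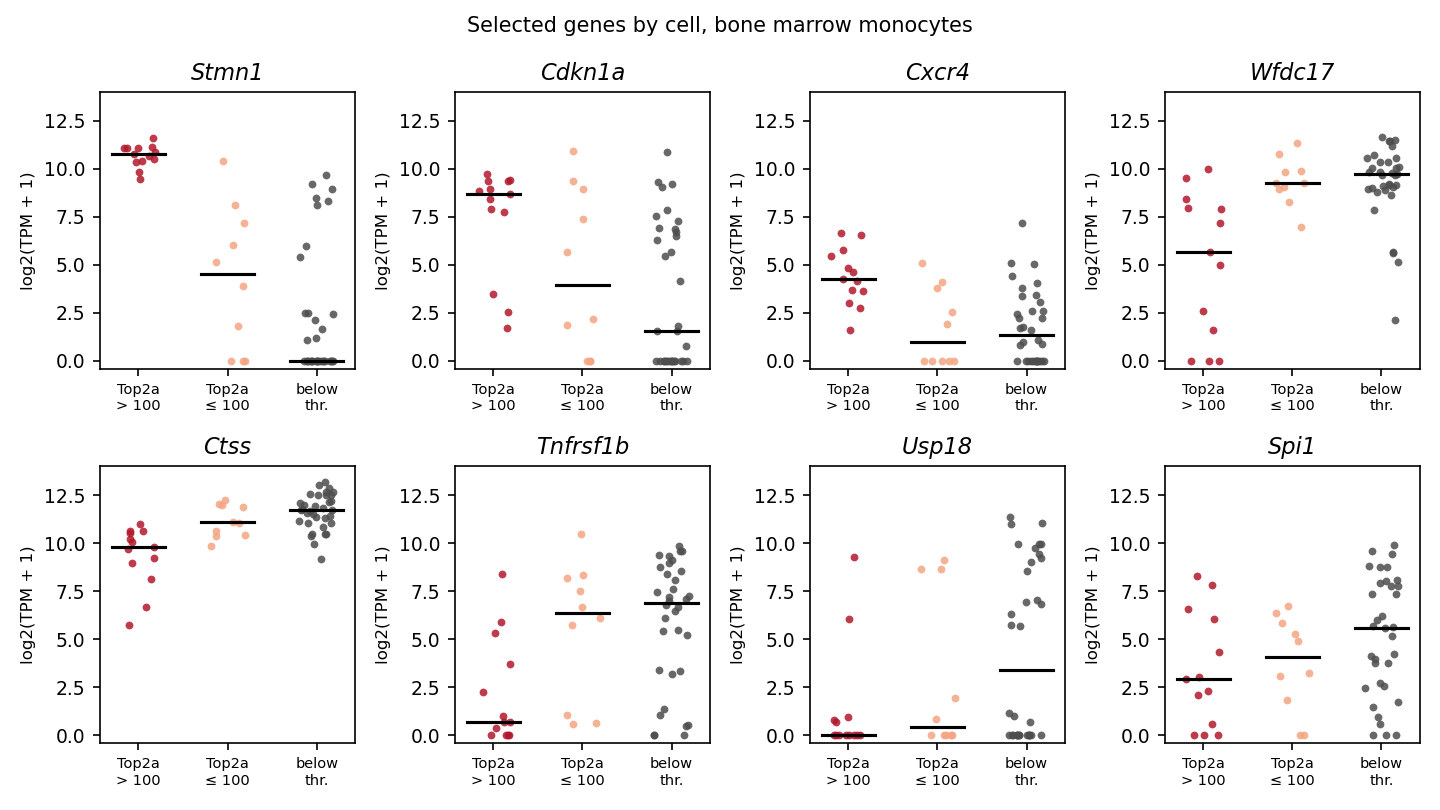
Log2(TPM + 1) of 8 genes in each BM monocyte, for the Top2a-high cells, the other cells above the threshold and the cells below it, with bars at the medians. Stmn1 and Cdkn1a have their highest medians in the Top2a-high cells, at 1723 and 414 TPM, and Wfdc17 and Ctss their lowest, at 48.98 and 872 TPM.

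Several lysosomal and sensing genes were lower. Ctss, the cathepsin that trims the MHC class II chaperone, was at 52.4 to 2038 TPM in the Top2a-high cells (median 872 TPM) and at 578 to 9353 TPM in the cells below the threshold (median 3398 TPM). Over all 23 cells its mean log2 level was 10.1 ± 1.601 (SD), against 11.6 ± 0.93 (SD) in the 34, a difference of -1.52. Fcgr3, an activating Fc receptor, differed by -1.65 and Plbd1, a phospholipase of granules, by -1.33. Of 28 measured phagocytic and lysosomal genes 3 differed by -1 or less and 2 by 1 or more (median -0.17), so the list as a whole moved little. Of 27 inflammatory genes 6 differed by -1 or less and 1 by 1 or more (median -0.48). Their median was -0.71 for the Top2a-high cells and -0.22 for the other 10 above the threshold. Tlr13, the receptor for bacterial ribosomal RNA, had medians of 0.77 TPM above the threshold and 30.7 TPM below it and differed by -2.33. Tlr2, the lipopeptide receptor, differed by -2.29. Tnfrsf1b, a receptor for tumour necrosis factor, differed by -2.21, with 11 of 23 cells above 10 TPM against 24 of 34. The 31 classical effector genes had a median of 0.17, and of -0.24 in the matched pairs, and were split, with 4 at 1 or more and 3 at -1 or less. For the Top2a-high cells their median was -0.15, and for the other 10 above the threshold it was 0.39.

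Interferon response genes were lower, in part through 2 cells below the threshold. Of 31 measured genes 13 differed by -1 or less and 1 by 1 or more, with a median of -0.63, of -0.98 for the Top2a-high cells. In pairs matched on gene number the median was -0.14 for 20 of the 23 cells and -1.12 for 10 of the Top2a-high cells. Per cell the mean log2 level of the list was 1.14 to 5.82 above the threshold (median 2.35) and 1.19 to 8.20 below it (median 2.72), so the sets overlapped. BM monocytes 41 and 45, both below the threshold, stood apart at 8.20 and 7.86, and the next cell below it was at 5.35. Without these 2 cells, a setting chosen after seeing the data, 7 genes differed by -1 or less and 2 by 1 or more, with a median of -0.25, and of -0.69 for the Top2a-high cells. Usp18, which shuts off interferon signalling, was above 10 TPM in 5 of 23 cells above the threshold and in 17 of 34 below it, a difference of -2.39 that was -0.75 in the 20 pairs and -1.97 without the 2 cells. Oas3 and Oas1a, sensors of double-stranded RNA, differed by -2.35 and -1.71, Ifi204, a DNA sensor, by -1.79 and Irf7, the interferon-inducing factor, by -1.59. Cmpk2, a mitochondrial nucleotide kinase induced by interferon, was the gene at 1 or more, at 1.79.

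Genes of retention in the marrow and of exit did not move as a block. Of 17 measured genes 3 differed by 1 or more and 2 by -1 or less, with a median of 0.23, and of 0.03 in the matched pairs. For the Top2a-high cells the median was -0.04, and for the other 10 above the threshold it was 0.24. Cxcr4, the receptor that holds cells in the marrow, had a median of 11.8 TPM above the threshold (0 to 99.4 TPM) and of 1.58 TPM below it (0 to 146 TPM), a difference of 1.46. It was above 10 TPM in 10 of the 13 Top2a-high cells, 3 of the other 10 and 6 of 34 below the threshold. Its level in other populations did not order by maturity, since its median was 24.5 TPM in cMoP and 16.6 TPM in blood monocytes. Ccr2, the receptor that monocytes need to leave the marrow, was above 10 TPM in every BM monocyte, at 183 to 2507 TPM above the threshold (median 1132 TPM) and 167 to 4403 TPM below it (median 1403 TPM), a difference of -0.14. Itga4, an integrin subunit, differed by -1.06 and Cx3cr1, the fractalkine receptor of mature monocytes, by -0.62.

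Genes of the Ly6C-low monocyte, the patrolling descendant of the classical cell, were at low levels in both sets. Of 16 measured, 5 differed by -1 or less and 1 by 1 or more (median -0.55). In the matched pairs 1 was at -1 or less and 0 at 1 or more, with a median of -0.59. Emr4, an adhesion receptor, was above 10 TPM in 2 of 23 cells above the threshold, neither of them Top2a-high, and in 8 of 34 below it. Nr4a1, the factor that those cells need, was above 10 TPM in 3 of 23 cells above the threshold and 9 of 34 below it, and Gngt2, a G protein subunit, in 12 of the 23 and 19 of the 34. Apoe, a lipid carrier, differed by -1.25. Of 9 measured MHC class II genes 2 differed by 1 or more and 2 by -1 or less, and Cd74, the class II chaperone, by -1.03. The MHC class II median was -0.27, and 0.32 in the matched pairs. It was -0.35 for the Top2a-high cells and -0.17 for the other 10 above the threshold.

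Among 32 measured transcription factor genes, 3 differed by 1 or more and 4 by -1 or less, with a median of 0.16. For the Top2a-high cells the median was -0.19, and for the other 10 above the threshold it was 0.25. Spi1, which encodes PU.1, a factor of the whole myeloid line, had medians of 7.53 TPM above the threshold and 47.3 TPM below it, a difference of -1.64, and was above 10 TPM in 10 of 23 cells above the threshold and 24 of 34 below it. Klf4, a factor of monocyte differentiation, differed by 1.45 and Id1, an inhibitor of basic helix-loop-helix factors, by 1.87. Atf3, a stress response factor, differed by -1.42, with medians of 44.9 TPM above the threshold and 153 TPM below it. Irf8, which specifies monocytes, differed by 0.06.

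Markers of other cells and library measures were read for the same sets. Mitochondrial transcripts took a median of 4.63% of TPM above the threshold and 4.09% below it, and ribosomal protein transcripts 6.01% above it and 6.69% below it. The summed level of 16 neutrophil markers was 27.2 to 1662 TPM above the threshold (median 301 TPM) and 6.17 to 2489 TPM below it (median 427 TPM), with Ltf, Camp, Ngp and 6 others at 0 in both sets. Fcnb, Cd177, Mmp8, Ly6g and Cxcr2 were above 10 TPM in at least 3 cells of each set, and Lcn2 in at least 3 cells below the threshold. The B cell markers Cd79a and Pax5 were at 0 in both sets, although Ighm, the immunoglobulin heavy chain gene, had medians of 455 TPM above the threshold and 572 TPM below it. Conventional dendritic markers summed to 0 to 2186 TPM above the threshold (median 7.92 TPM) and 0 to 954 TPM below it (median 5.27 TPM), and plasmacytoid markers to 0 to 435 TPM (median 7.23 TPM) above it and 0 to 1547 TPM (median 27.6 TPM) below it. Macrophage markers summed to 4.87 to 1743 TPM above the threshold (median 49.7 TPM) and 1.49 to 1581 TPM below it (median 36.6 TPM), with C1qa and Vcam1 at 0. Emr1, Spic and Hmox1 were above 10 TPM in at least 3 cells of each set. T and NK markers summed to at most 52.3 TPM above the threshold and 999.6 TPM below it, with 12 of the 17 at 0 in each set. Erythroid markers reached 206 TPM above the threshold and 26.7 TPM below it, and basophil, mast, eosinophil and megakaryocyte markers at most 13.5 TPM in either set. The part of such markers in the differences was not tested. No index pair was shared among the 95 libraries of the monocyte flow cell lane.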

How the data were processed

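mRNA of single cells was captured on Fluidigm C1 circuits with oligo(dT) priming and Nextera XT libraries, per the labels' protocols. The authors deposited TPM values for 43280 gene symbols, made with RSEM 1.2.19 on GRCm38 per the submitters' processing notes. With aligner and annotation not given in the sources used here, their effect is unknown. Column sums were 997939 to 999955 TPM. Read depth cannot be recovered from TPM and is unknown, so library complexity was read from the number of genes above 1 TPM. A value of 0 can be a failed estimate or a lost transcript.

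Means of log2(TPM + 1) were taken over cells with Python 3.11.15, pandas 2.3.3 and NumPy 2.4.6. The pseudocount understates differences of low genes. Shares carry 95% exact (Clopper-Pearson) intervals from SciPy 1.17.1, and for 0 cells the limit is 3 cells of the total, both for the counting of cells only. Cells of 1 sample are not replicates, so no test was run. Genes named were the rule, gate and Ms4a3 genes, the 20 largest differences in each direction, the first 10 positive genes outside the cycle lists, up to 6 members of each of 28 lists (every measured member for retention, transcription factor and inhibitor lists) and up to 10 of the built lists. Mpo and the Top2a-high set were chosen after their values were seen. The members and lists were chosen with earlier results of these data known. Pairs joined each cell above the threshold to the nearest cell below it in gene number, at most 500 genes apart. The functions were tested on simulated data.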

Additional observations from a re-analysis of the deposited data

How the results depend on the processing

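No result has a test, so a setting can only move a value. The share of BM monocytes above the threshold was 78.9% at 1 TPM, 26.3% at 50 TPM, 21.1% with both genes required and 22.8% with Top2a above 100 TPM. The last setting, its pairing on gene number, leaving out each cell in turn and leaving out 2 interferon-high cells were added after seeing the data. Genes at 1 or more numbered 2732 with both genes required, 3426 with a pseudocount of 0.1, 469 with 10 and 2622 for Top2a above 100 TPM. Genes at -1 or less numbered 732 at 1 TPM, 484 with both genes required, 667 and 74 with pseudocounts of 0.1 and 10, 2043 as log2 ratios of mean TPM, 694 in the matched pairs, 474 and 605 for cells with the G2 and M mean above and not above the S phase mean, 493 for Top2a above 100 TPM and 1602 when those were paired. The G2 and M median was 4.64 with both genes required, 4.58 as a ratio of means, 0.63 for the cells with the S phase mean at or above the G2 and M mean, 4.91 for Top2a above 100 TPM and 4.21 when paired, and the S phase median was 3.30 as a ratio of means. Among named genes that differed by 1 or more, the sign turned for Prtn3 (-0.52) and Serpinb1a (-0.14) at 1 TPM, for Cd74 (0.014) with Mki67 alone, for Prtn3 (-0.054) without the 16 cells holding a granule protease above 10 TPM, and for Itga4 (0.47), Apoe (0.11) and Gngt2 (0.44) in the 9 cells with the S phase mean at or above the G2 and M mean. Smaller differences turned as well, such as Ly6c2 (0.39), Irf8 (-0.63), Ighm (0.85) and the transcription factor median (-0.41) at 50 TPM. The cause was not tested. Leaving out each cell gave 1689 to 1813 genes at 1 or more, 296 to 332 at -1 or less, and list medians of 1.19 to 1.62 for S phase, 2.47 to 2.84 for G2 and M phase, -0.89 to -0.48 for interferon, 1.14 to 1.46 for the progenitor list and -0.52 to -0.23 for the blood list. No BM monocyte had over 15% mitochondrial or under 1% ribosomal protein TPM, so that setting gave no value. Median-ratio scaling shifted the median of all genes by -0.02. No paired analysis was possible because replicate numbers only name cells.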

Other observations

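The same rule was applied to the other populations. It took 65 of 66 cMoP (98.5%, 91.8 to 99.96%) and 8 of 38 blood monocytes (21.1%, 9.55 to 37.3%). The 8 blood cells had at most 17.4 TPM of Top2a and 32.8 TPM of Mki67, and none had both above 10 TPM. Their G2 and M means were 0.31 to 1.40 (median 0.55), and 2 to 16 of the 86 cycle genes lay above 10 TPM (median 3.5). They overlapped the 10 BM monocytes above the threshold that were not Top2a-high, at 0.52 to 1.53. No blood monocyte had Top2a above 100 TPM, which allows a share of up to 7.89%.

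The S phase mean and the G2 and M mean were set side by side in cells with Top2a above 100 TPM. Top2a belongs to the G2 and M programme, so this choice of cells favours a high G2 and M mean. It kept 13 of 57 BM monocytes and 59 of 66 cMoP, so it selected more strongly among BM monocytes. BM monocyte 18, with an S phase mean of 3.20, was left out by it. The means are over different genes and have no common zero. The G2 and M mean exceeded the S phase mean in 10 of the 13 cells from the marrow monocyte gate (76.9%, 46.2 to 94.96%) and in 11 of 59 cMoP (18.6%, 9.69 to 30.9%). In the 13 BM monocytes the S phase mean had a median of 3.75 and the G2 and M mean a median of 5.54, against 5.94 and 3.64 across all cMoP. The populations lay on different flow cells, so population, flow cell and the choice of cells by Top2a cannot be told apart here.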
